A study of Rattus norvegicus with 10 samples.

Results

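Neurexins, neuroligins and contactin-associated proteins are adhesion molecules of the neuronal surface, measured here in the brains of rats shortly after they breathed an odor or water vapor. The members are all probe sets that GEO's platform annotation pairs with a single gene among Cntnap1, Cntnap2, Cntnap4, Nrxn2, Nrxn3, Nlgn1, Nlgn2 and Nlgn3. This gave 14 probe sets of 7 genes, among 31042 probe sets tested. Cntnap2 has 3 probe sets, Cntnap1 has 1, and the other 5 genes have 2 each, while Cntnap4 was not analysed here. The genes were chosen by their differences between the groups, above all the probe sets of Cntnap2, which lie on both sides of 0. The differences are therefore given as a description without a test of their own, and every probe set is kept apart.

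The animals were male Wistar rats aged 7 weeks. In the control group (n = 5), each rat inhaled vapor of distilled water for 5 min. In the DMHF group (n = 5), each inhaled vapor of DMHF for the same time. DMHF is 4-hydroxy-2,5-dimethyl-3(2H)-furanone, an aroma compound found in strawberries and other foods. In either case the vapor came from 5 mL of liquid, and the rats had free access to food and water. DMHF was given before the dark period of the day, and a wait of 10 min between inhalation and death is described for it. Total RNA of the right side of each brain was put on its own array, so each rat gave 1 value per probe set. No genetic change is named for either group. The comparison asks which brain transcripts differ between the groups soon after inhalation.

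Neurexins sit on the presynaptic membrane and bind neuroligins across the synaptic cleft. Inside the cell, neurexins reach the release machinery through scaffold proteins, and neuroligins bind the scaffolds that hold receptors in place. The contactin-associated proteins are built much like neurexins but are best known from myelinated axons. There they line the paranode, where myelin is sealed to the axon, and the neighbouring juxtaparanode, where potassium channels gather. Variants of several of these genes are linked with autism and related conditions in people. RNA from a whole side of the brain mixes its cell types and regions, so fewer cells of a type and less RNA per cell cannot be told apart.

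The deposited values are on a log2 scale and differ between rats by very little. For the median probe set, the SD between rats of one group, pooled over both groups, was 2.17 millionths of a log2 unit. Values are therefore given in millionths of a log2 unit from the control mean of the same probe set, and differences also in units of that pooled SD. They cannot be turned into fold changes of RNA, and a size in millionths is not comparable between probe sets. Array medians lay at 7.24 and differed by at most 15.2 millionths. All 9 measured markers of neurons and all 7 of oligodendrocytes had a mean above the array median, against 0 of 6 liver markers. Averaged over the neuron markers, in units of each one's SD, rats ranged from -0.304 to 0.201 in control and from -0.926 to 0.306 in DMHF. For 8 pituitary markers, of which 1 had a mean above the array median, the ranges were -1.22 to 0.589 and 0.189 to 1.59. For 5 endothelial markers, 4 of them above it, they were -1.08 to 0.865 and -1.41 to -0.173. The pituitary and endothelial lists had the largest score differences of 11 marker lists (0.853 and -0.651), followed by choroid plexus with 0.531. The part of these lists in the results below was not tested.

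Over the whole table no transcript passed the test of DMHF against control. By limma with Benjamini-Hochberg adjustment, 0 of 31042 probe sets passed an adjusted p of 0.05, a share of 0%. Without adjustment, 1700 of them had a limma p under 0.05, among them 2 members. None of the 14 member probe sets passed (limma adjusted p from 0.698 to 1). Of the members, 9 were nominally lower and 5 higher in DMHF, and 11 lay within 1 SD of 0. Of all probe sets, 46.8% were nominally lower and 83.8% lay within 1 SD. The median difference was -0.239 SD over the members and 0.0528 SD over all probe sets. That baseline depends on brightness. Over the 15521 probe sets with a mean at or above the median, the median difference was -0.0696 SD. These held 12 members, 7 of them nominally lower. The count of lower members was also 9 with a common array median, 10 after centring each array on the median deviation of all probe sets, and 8 to 10 with each array left out in turn.

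**Figure D1:**
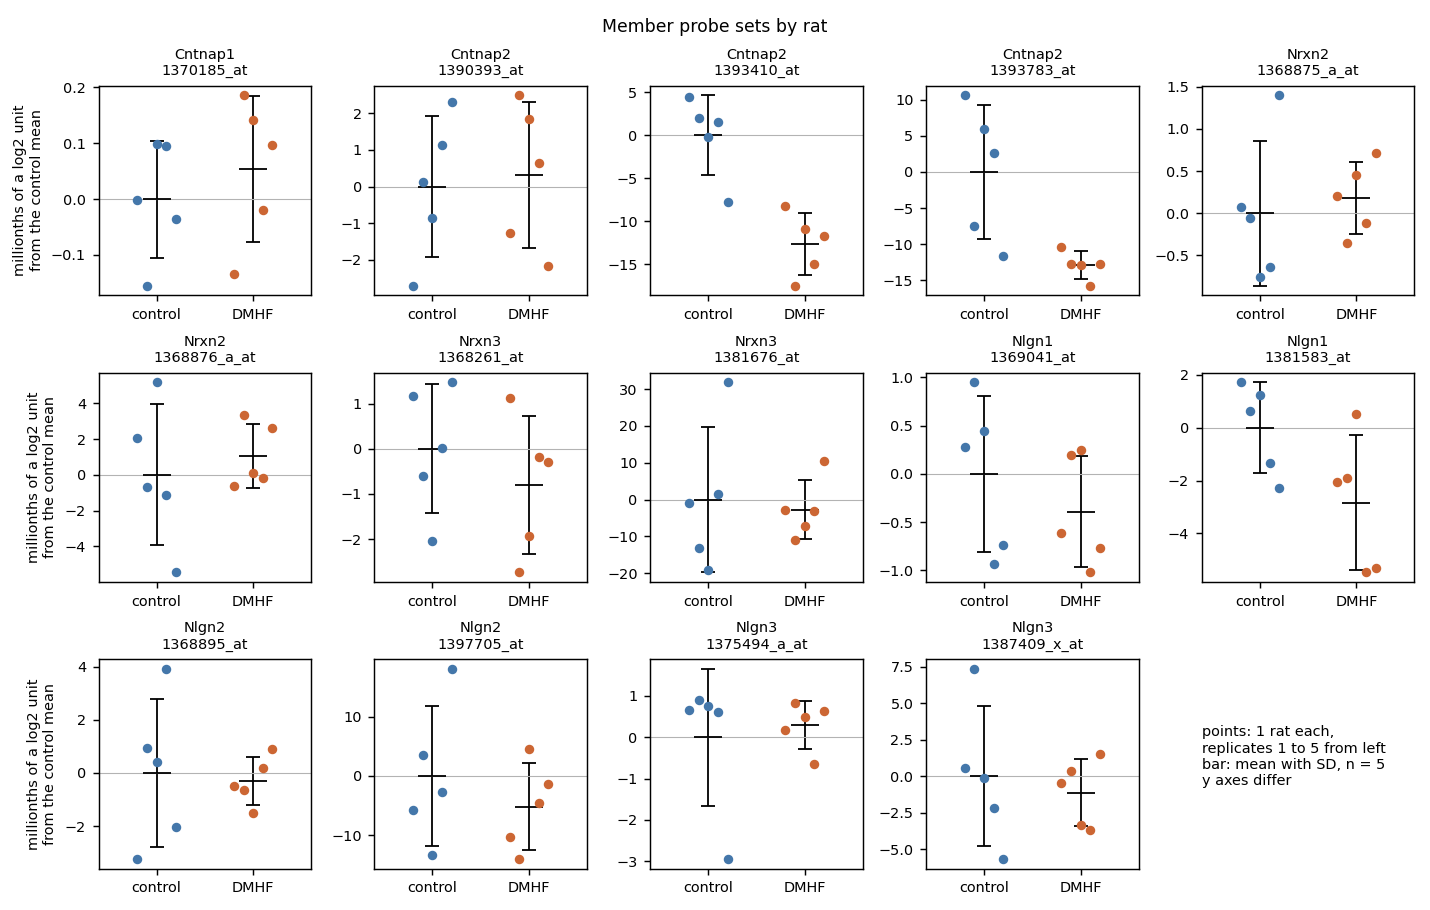
Deviation from the control mean (y axis, millionths of a log2 unit, with a scale of its own in each panel) for the 14 member probe sets, with 1 point per rat and the mean with SD (n = 5) for control and DMHF. In Cntnap2 1393410_at all DMHF rats lie below all control rats, with values from -17.5 to -8.21 against -7.76 to 4.45, while the other 13 panels show overlapping groups.

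Cntnap2, also called Caspr2, helps cluster potassium channels at the juxtaparanode, and 2 of its 3 probe sets were nominally lower in DMHF. For probe set 1393410_at (mean 8.31 on the deposited log2 scale), control replicates 1 to 5 stood at 4.45, 1.94, -0.186, 1.55 and -7.76 millionths from the control mean. The DMHF replicates stood at -8.21, -17.5, -10.9, -15.0 and -11.7 millionths. Every DMHF rat lay below every control rat, although control replicate 5 came within a millionth of the highest DMHF rat. The difference was -12.7 millionths (limma SE 2.51), or -3.04 SD, with group SDs of 4.64 in control and 3.63 in DMHF (n = 5 each). It was the only member whose groups did not overlap, 1 of 14. Over all probe sets, 0.332% had every DMHF rat below every control rat and 0.535% had every one above. Since the gene was chosen on this contrast, nothing is read from that count.

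For Cntnap2 probe set 1393783_at (mean 7.32), the control rats stood at 10.6, -7.53, 5.87, 2.63 and -11.6 millionths. The DMHF rats stood close together at -10.4, -12.7, -12.8, -15.7 and -12.7 millionths. The control rats were widely spread, with replicates 2 and 5 low, and 4 of 5 DMHF rats lay below all of them. The difference was -12.9 millionths (SE 4.03), or -1.92 SD, with SDs of 9.28 in control and 1.91 in DMHF. After quantile normalization it was 0, while 1393410_at and the remaining Cntnap2 probe set were not left to test.

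The remaining Cntnap2 probe set, 1390393_at (mean 9.70), did not share this difference. Control rats stood at -2.70, 0.127, -0.860, 1.13 and 2.30 millionths and DMHF rats at -1.27, 2.49, 1.85, 0.652 and -2.16. The groups overlapped almost fully, and the difference was 0.312 millionths (SE 1.19), or 0.160 SD. With each array left out in turn, the difference ranged from -14.6 to -11.5 millionths for 1393410_at and from -15.8 to -10.2 for 1393783_at. That of 1390393_at ranged from -0.363 to 0.931, and its sign changed in 3 of the 10 cases. Which part or isoform of the transcript each probe set reads was not tested.

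Cntnap1, or Caspr, joins with the contactin Cntn1 on the axon and with glial neurofascin to form the paranodal junction. Its single probe set, 1370185_at (mean 9.36), varied very little. Control rats stood at -0.00200, -0.155, 0.0980, 0.0950 and -0.0360 millionths and DMHF rats at -0.135, 0.186, 0.142, -0.0200 and 0.0970. The rats of each group were scattered on both sides of the control mean. The difference was 0.0540 millionths, or 0.456 SD, and limma gave it an SE of 0.224, wider than the spread of its own groups (SD 0.105 in control and 0.131 in DMHF). With each array centred on the median deviation of all probe sets it stood at -0.00843 millionths, so its sign depends on the scaling.

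The neurexins, presynaptic receptors encoded by long genes with several promoters and many splice forms, had differences within 1 SD on all 4 probe sets. For Nrxn2 probe set 1368875_a_at (mean 10.12), control rats ranged from -0.762 to 1.40 millionths and DMHF rats from -0.352 to 0.708. The difference was 0.180 (SE 0.461), or 0.265 SD. For Nrxn2 probe set 1368876_a_at (mean 7.36) the ranges were -5.45 to 5.18 and -0.608 to 3.36, and the difference was 1.06 (SE 1.86), or 0.344 SD. In either probe set the DMHF rats fell inside the control range. With each array left out, the differences ranged from -0.0105 to 0.529 and from -0.308 to 2.35, and each changed sign in 1 of the 10 cases.

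For Nrxn3 probe set 1368261_at (mean 10.31), control rats stood at 1.17, -0.604, -2.05, 0.0160 and 1.48 millionths. The DMHF rats stood at 1.12, -2.74, -1.93, -0.174 and -0.294, a difference of -0.806 (SE 0.915), or -0.545 SD. For Nrxn3 probe set 1381676_at (mean 6.98), control replicate 5 stood at 31.9 millionths and the other control rats between -19.2 and 1.40. The DMHF rats ranged from -11.0 to 10.4, all within the control range, and the difference was -2.70 (SE 9.07), or -0.179 SD. Without single arrays that difference ranged from -7.49 to 5.26 and changed sign in 1 of 10 cases.

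Neuroligins are the postsynaptic partners of neurexins. Nlgn1, which is found mainly at excitatory synapses, was nominally lower in DMHF on both of its probe sets. For Nlgn1 probe set 1381583_at (mean 8.71), control rats stood at 1.73, 0.647, 1.24, -1.32 and -2.29 millionths. The DMHF rats stood at -2.06, -1.89, 0.538, -5.48 and -5.33 millionths. In DMHF, replicates 4 and 5 lay below all control rats and the other 3 among them. The difference was -2.84 millionths (SE 1.33), or -1.30 SD, with SDs of 1.73 and 2.55. After quantile normalization it stood at -0.539 millionths, or -0.632 SD of the normalized values, about what 1 array apart from all others gives. For Nlgn1 probe set 1369041_at (mean 8.42) the control rats stood at 0.278, 0.951, 0.445, -0.937 and -0.736 and the DMHF rats at -0.612, 0.199, 0.244, -1.02 and -0.767. The groups overlapped, and the difference was -0.392 millionths (SE 0.473), or -0.559 SD. With each array left out, the differences ranged from -3.69 to -2.19 and from -0.627 to -0.155, so neither sign changed.

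Nlgn2, the neuroligin of inhibitory synapses, had overlapping groups on both probe sets. For Nlgn2 probe set 1397705_at (mean 7.87), control rats ranged from -13.3 in replicate 3 to 18 millionths in replicate 5, and DMHF rats from -14.0 to 4.47. The difference was -5.13 (SE 5.88), or -0.525 SD. For Nlgn2 probe set 1368895_at (mean 7.00) the ranges were -3.25 to 3.92 and -1.50 to 0.901, and the difference was -0.307 (SE 1.27), or -0.148 SD.

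Nlgn3, a neuroligin of excitatory and inhibitory synapses, had differences of opposite sign. For Nlgn3 probe set 1375494_a_at (mean 7.27), control replicates 1 to 4 lay between 0.616 and 0.911 millionths and replicate 5 at -2.95. The DMHF rats ranged from -0.635 to 0.830, and the difference was 0.299 (SE 0.775), or 0.242 SD. Leaving out single arrays moved it between -0.439 and 0.533, and the sign changed in 1 of the 10 cases. For Nlgn3 probe set 1387409_x_at (mean 7.69) the control rats ranged from -5.69 to 7.35 and the DMHF rats from -3.69 to 1.52. That difference was -1.12 (SE 2.26), or -0.299 SD, and its sign changed in 1 of the 10 cases too.

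**Figure D2:**
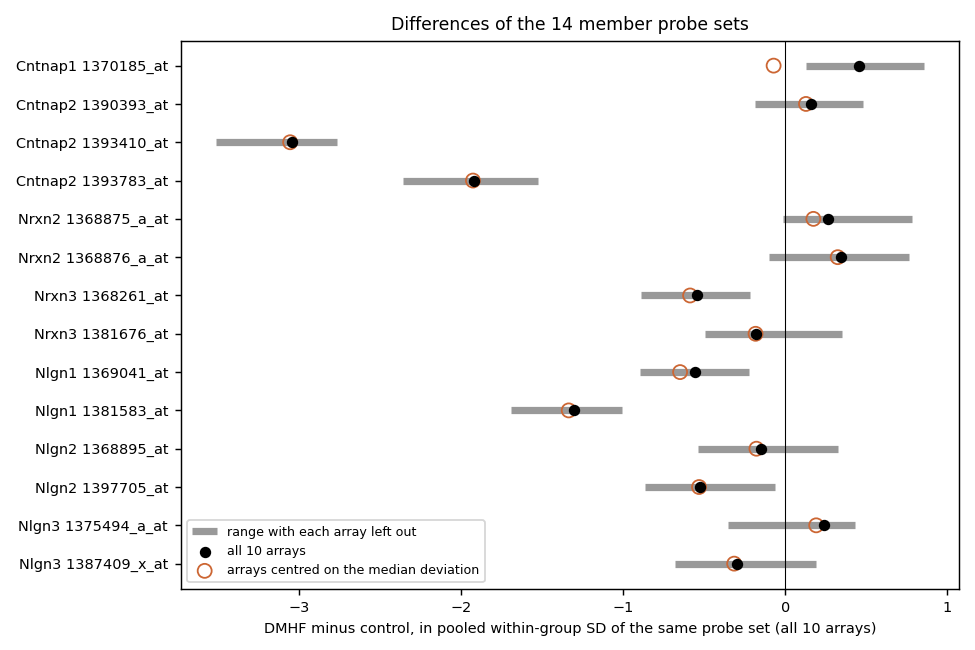
DMHF minus control (x axis, in units of each probe set's pooled SD within groups) for each of the 14 member probe sets. Black points use all 10 arrays, grey bars span the values with each array left out, and open circles show arrays centred on the median deviation of all probe sets. Cntnap2 1393410_at at -3.04, Cntnap2 1393783_at at -1.92 and Nlgn1 1381583_at at -1.30 are the members beyond 1 SD.

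Deviations of the rats from their own group mean do not use the contrast on which the genes were chosen, and they show whether probe sets of one gene vary together between rats. The 8 pairs of probe sets of the same gene were tested over 10 arrays with an exact two-sided permutation test that kept rats within their group. None passed an adjusted p of 0.05 after Benjamini-Hochberg adjustment over the 8 pairs, and 3 had an unadjusted exact p under 0.05 (0.0130, 0.0274 and 0.0358). The median r was 0.216 over the 8 same-gene pairs, 4 of them positive, and -0.0621 over the 83 pairs of different member genes.

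Nlgn1 had the highest same-gene correlation. Its probe sets gave r = 0.793 (exact permutation p = 0.0130, adjusted 0.0934) and rho = 0.661 (exact p = 0.0424, adjusted 0.105). The correlation was 0.820 within control and 0.869 within DMHF. Without the 2 arrays farthest from the median of probe set 1369041_at, r was 0.894. In the control rats, replicates 1 to 3 were high and replicates 4 and 5 low on both probe sets.

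For Cntnap2, 1 pair of probe sets had a positive and 2 pairs a negative r, and none of the 3 passed. The 2 nominally lower ones, 1393410_at and 1393783_at, gave r = 0.639 (exact permutation p = 0.0562, adjusted 0.0934) and rho = 0.430 (exact p = 0.250). Control replicate 1 was highest and control replicate 5 lowest on both. Without control replicate 5, r over the remaining arrays fell to 0.276, so its size depends much on that rat. Without the 2 arrays farthest from the median of 1393410_at it was 0.414. Within groups, r was 0.727 in control and 0.63 in DMHF, which does not hold that rat. Probe set 1390393_at had r = -0.706 against 1393410_at (exact p = 0.0358, adjusted 0.0934) and r = -0.607 against 1393783_at (exact p = 0.0584, adjusted 0.0934). The matching rho values were -0.648 (exact p = 0.0656) and -0.636 (exact p = 0.0636). Without control replicate 1 and DMHF replicate 5, the 2 arrays farthest from the median of 1390393_at, r was -0.706 and -0.485. Without control replicate 5 alone it was -0.606 and -0.446.

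**Figure D3:**
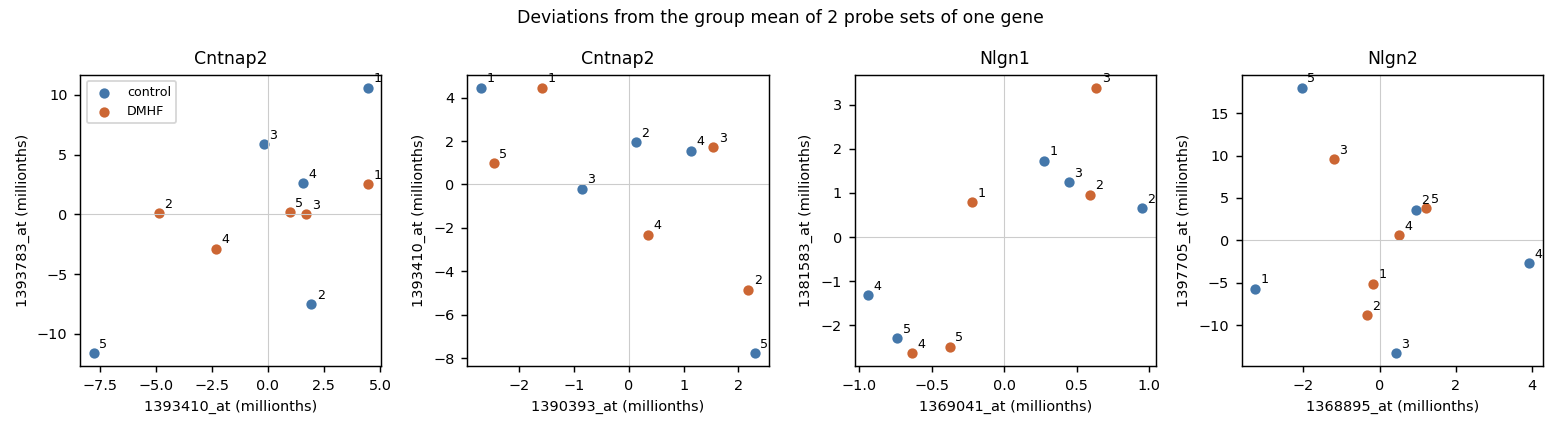
Deviations of single rats from their group mean (both axes, millionths of a log2 unit) for probe sets of one gene, numbered by replicate. The points rise together for Nlgn1 (r = 0.793) and for 2 Cntnap2 probe sets (r = 0.639), run in opposite directions for Cntnap2 1390393_at against 1393410_at (r = -0.706) and show no clear trend for Nlgn2 (r = -0.208).

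Neither neurexin pair passed. The Nrxn3 probe sets gave r = 0.677 (exact permutation p = 0.0274, adjusted 0.0934) and rho = 0.733 (exact p = 0.0283, adjusted 0.105), and r = 0.524 without the 2 arrays farthest from the median of 1368261_at. Those of Nrxn2 had r = -0.662 (exact p = 0.112, adjusted 0.144) and rho = -0.418 (exact p = 0.275). Control replicates 3 and 5 set that value, since r was 0.124 without them. For Nlgn3, r was 0.703 (exact p = 0.126, adjusted 0.144) and rho 0.6 (exact p = 0.0526), with r = 0.403 without control replicate 5 and DMHF replicate 4. For Nlgn2, r was -0.208 (exact p = 0.698) and rho 0.0182 (exact p = 0.975), with r = -0.527 without control replicates 1 and 4. None of the 14 member probe sets passed for a correlation with the array median (exact adjusted p from 0.409 to 0.926 over the 14). The lowest p was that of Cntnap2 1393410_at, with r = 0.716 (exact p = 0.0292, adjusted 0.409), rho = 0.624 (exact p = 0.0753) and r = 0.434 without the 2 arrays of most extreme median. Array medians ranged over 15.2 millionths, but the median deviation of all probe sets only from -0.101 to 0.0667. Correlation with the array median therefore cannot show whether members follow a shift of the whole array.

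**Figure D4:**
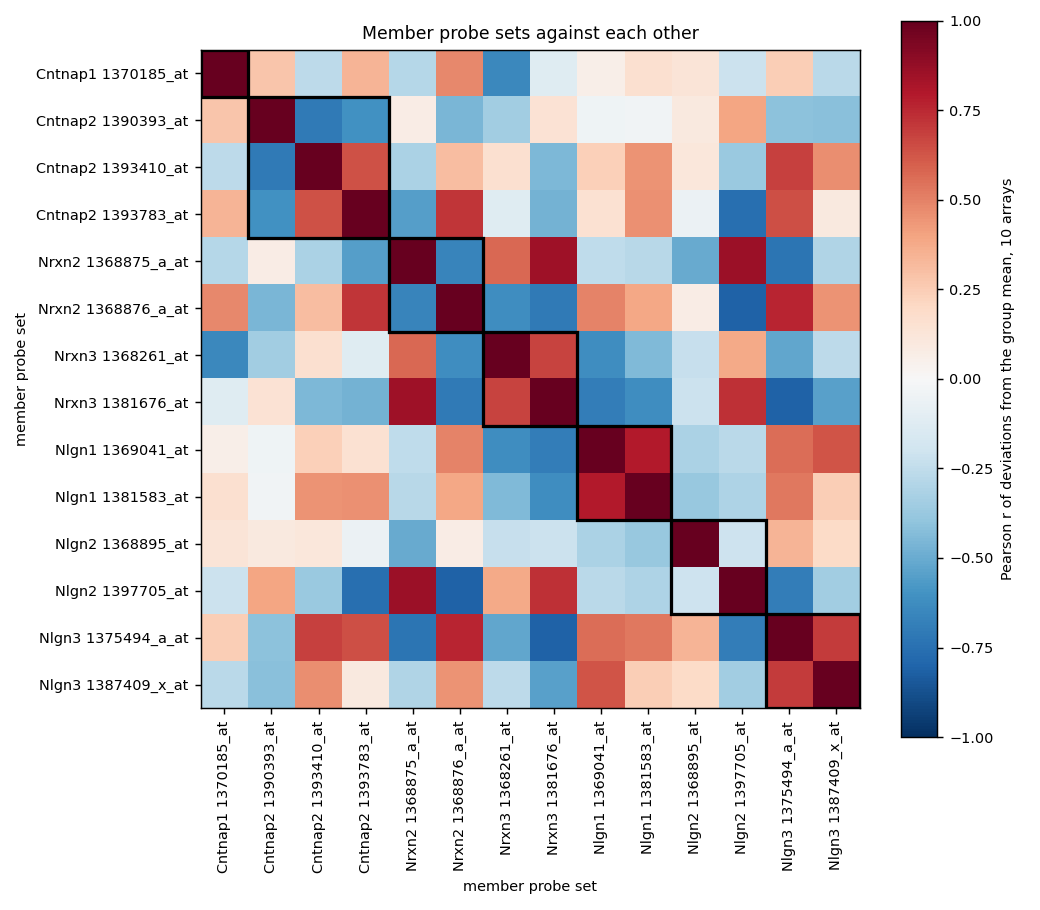
Pearson r of deviations from the group mean over 10 arrays (colour scale from -1 to 1) between all 14 member probe sets, with black frames around probe sets of one gene. Values inside the frames run from -0.706 for 2 Cntnap2 probe sets to 0.793 for Nlgn1, and values between genes run from -0.808 to 0.856.

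Between genes, the highest value was r = 0.856 for Nrxn2 1368875_a_at with Nlgn2 1397705_at, and Nrxn3 1381676_at followed with r = 0.845 to the same Nrxn2 probe set. Control replicate 5 was the highest control rat on all 3. These were the most extreme of 83 pairs and are given as a description. Over 20563 to 20565 named probe sets of other genes, the closest to the brightest Cntnap2 probe set, 1390393_at, were Pde1b (r = 0.991), a phosphodiesterase, Mapt (r = 0.968), the microtubule protein tau, and Rnf207 (r = 0.968). Closest to Nrxn3 1368261_at were Tprn (r = 0.973), Ptprb (r = 0.968), a phosphatase of blood vessels, and Ppm1b (r = 0.967). For Nlgn1 1381583_at they were Abca8 (r = 0.943), Srebf2 (r = 0.940), a regulator of cholesterol synthesis, and Grpel2 (r = 0.929).

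For Nlgn3 1387409_x_at the closest were Fmo4 (r = 0.952), Usp31 (r = 0.949) and Nipsnap3b (r = 0.941). For Nlgn2 1397705_at they were Tsen54 (r = 0.944), a part of the enzyme that splices transfer RNA, Slx4 (r = 0.940), a DNA repair scaffold, and Kmt2e (r = 0.933). Cntnap1 1370185_at was closest to Epha4 (r = 0.937), an ephrin receptor, Arpp21 (r = 0.935) and Smg9 (r = 0.932). Nrxn2 1368875_a_at was closest to Zfp536 (r = 0.923), Asxl2 (r = 0.914) and Ep300 (r = 0.902), a histone acetyltransferase. Each r is among the highest of all these candidates over the same 10 arrays and is given as a description, with no p.

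Genes that work with these proteins were also read. In 6 lists of related genes, 101 genes were measured by 191 probe sets, of which 82 were nominally higher and 109 lower in DMHF. None passed limma over all probe sets. In 1 of the 191 the groups did not overlap, with DMHF lower, beside 0.332% of all probe sets in that direction and 0.535% in the other, so the lists do not stand out by this count. The median difference of the 191 was -0.0944 SD, beside 0.0528 SD over all probe sets. At the extracellular side, 16 of 32 probe sets of other partners of neurexins and neuroligins were lower (median -0.0348 SD), as were 25 of 50 of other synaptic adhesion proteins (median -0.00271 SD). Inside the cell, 6 of 14 probe sets of presynaptic scaffolds were lower (median 0.122 SD) and 22 of 40 of postsynaptic scaffolds (median -0.0749 SD). The postsynaptic scaffold Magi1 was nominally higher on all 5 of its probe sets, by 0.196 to 1.79 SD. On the 2 with the smallest p the differences were 200 (SE 67.2) and 21.5 millionths (SE 7.45, limma adjusted p = 0.868 for each).

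The neuronal cadherin Cdh2 was nominally higher on probe set 1378271_at, with DMHF rats from 0.894 to 3.37 millionths and control rats from -1.07 to 1.38. The difference was 2.51 millionths (SE 0.638), or 2.51 SD (limma adjusted p = 0.738). The other Cdh2 probe sets stood at -1.33 and 0.00595 SD. Slitrk3, an adhesion protein of inhibitory synapses, stood at -14.5 millionths (SE 4.59, adjusted p = 0.830). Among neurexin partners, probe sets of the secreted protein C1ql3 went both ways, at -6.58 (SE 3.15) and 0.714 millionths (SE 0.391). Of the presynaptic scaffolds, Ppfia2, a liprin, stood at -117 (SE 49.5) and Apba2, a Mint protein, at 5.33 millionths (SE 2.74) on 1 probe set and at 0.125 SD on its other. None of these passed the test (limma adjusted p from 0.738 to 0.942).

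Proteins of the paranode (the axonal site of Cntnap1), the juxtaparanode (that of Cntnap2) and the node were nominally lower on 38 of 49 probe sets. By the brightest probe set, 16 of 21 genes were lower. Of all probe sets, 46.8% were lower. The median difference was -0.341 SD, beside 0.0528 SD over all probe sets and -0.0696 SD over the 15521 brighter ones. Of the 49 probe sets, 0 passed limma over all probe sets. With a common array median, or after centring on the median deviation, 40 were lower, and 29 to 39 with each array left out. Quantile normalization left 12 of them to test, of which 4 were lower, with a median of 0.047 SD. A difference of 0 after that step does not count as lower, so this count does not say how many were higher. The probe set whose groups did not overlap belongs to Ank2, an ankyrin that ties membrane proteins to the spectrin skeleton. For Ank2 probe set 1396612_at the control rats stood at 799, -439, -40.4, 196 and -516 millionths and the DMHF rats at -1050, -920, -765, -935 and -1080. The difference was -950 millionths (SE 233), or -2.45 SD (limma adjusted p = 0.738). All 3 probe sets of Ank2 were nominally lower. Averaged over 7 oligodendrocyte markers, in units of each one's SD, control rats ranged from -0.750 to 0.483 and DMHF rats from -1.45 to 0.768, and the part of this in the list was not tested.

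Direct partners of Cntnap1 and Cntnap2 had differences within 1 SD. Cntn1, the partner of Cntnap1, differed by 2.96 millionths (SE 18.8) and Cntn2, the partner of Cntnap2, by -1.44 (SE 2.29). The potassium channel subunits gathered with Cntnap2 stood at -0.988 (SE 1.84) for Kcna1 and -9.20 (SE 6.79) for Kcna2, whose other probe set stood at 0.895 SD. Epb41l3, the cytoskeletal linker bound by both proteins, stood at 0.964 (SE 1.10), and its other probe set at -0.341 SD. Kcnab2, a subunit of the same channels, stood at -21.4 (SE 6.78, limma adjusted p = 0.830), with 4 of 5 DMHF rats below all control rats. Its other 3 probe sets stood at -1, -0.931 and 0.271 SD. Of the 6 contactins measured, 4 were nominally higher. Cntn3 differed by 18.1 millionths (SE 6.99, limma adjusted p = 0.876), with 4 of 5 DMHF rats above all control rats, and Cntn6 by 1.06 (SE 0.812).

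**Figure D5:**
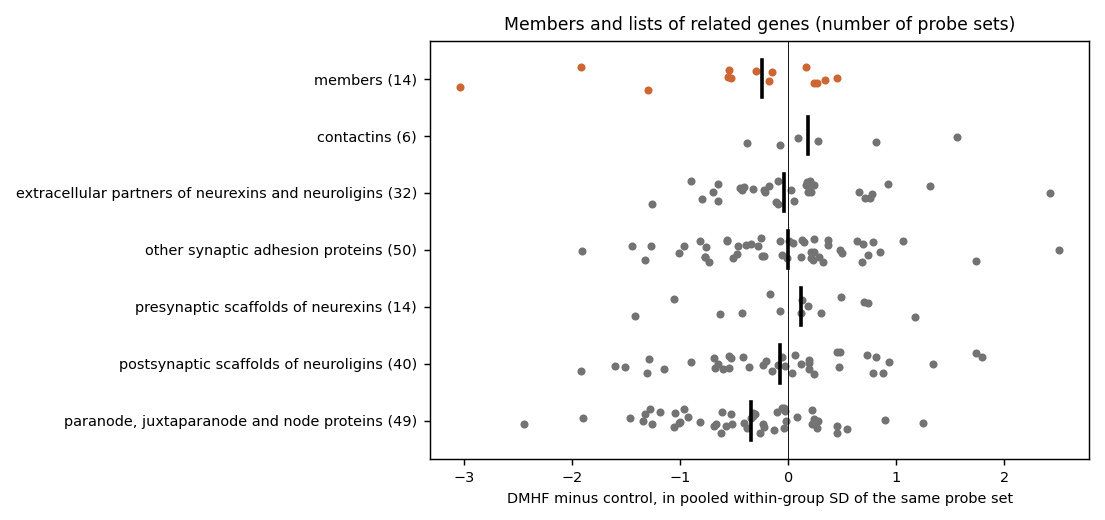
DMHF minus control (x axis, in units of each probe set's pooled SD within groups) for the 14 member probe sets and the probe sets of 6 lists of related genes, with 1 point per probe set and a black bar at each median. List medians lie between -0.341 for paranode, juxtaparanode and node proteins and 0.185 for contactins.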

How the data were processed

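The authors deposited 1 table of log2 values, already processed, for 31099 probe sets on 10 arrays. The submitters' processing notes name R 2.7.2. Methods of background correction, normalization and probe summary were not given in the sources used here, and the log base was inferred from the values, which ran from 5.25 to 14.22, and higher was taken as more RNA. The sample titles gave each array's group and its replicate number, and describe the replicates as biological. Batches and scan dates were not analysed here. After 57 Affymetrix control probe sets were left out, 31042 were fitted with limma 3.58.1 in R 4.3.3 (lmFit, eBayes, no covariate), two-sided, with Benjamini-Hochberg adjustment over all of them. The prior degrees of freedom were 0.841. Adjusted p-values for DMHF against control are from this fit. Tested on data simulated from the means and spreads of all 31042 probe sets, the fit recovered 6% of 50 probe sets shifted by 2 SD, 66% shifted by 4, 98% shifted by 6 and 100% shifted by 8.

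GEO's platform annotation gave the gene names, with a single symbol for 20826 probe sets. All 14 member symbols were found under the same gene identifier in the RefSeq gene table of GRCr8. The members and lists were chosen with earlier results of these data known. Named from each list were the 2 probe sets with the smallest unadjusted p and, fixed by name, the brightest of Cntn1, Cntn2, Epb41l3, Kcna1 and Kcna2. The 3 likest probe sets of each member gene's brightest probe set were also named. Correlations used deviations from the group mean, with all 14400 within-group permutations enumerated. A further list was not analysed here. Alternatives are given in the closing section. The number of arrays limits the precision.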

Additional observations from a re-analysis of the deposited data

Results flagged for a closer look

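In Nlgn3 probe set 1375494_a_at, control replicate 5 stood at -2.95 millionths of a log2 unit from the control mean, far below the other 4 control rats. The gap to the nearest of them made up 0.924 of the group's range, above Dixon's 95% critical value of 0.71 for 5 samples. It was the only such value among the 28 groups of 5 rats examined, of which chance would pick out about 1 in 20.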

How the results depend on the processing

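No member probe set passed an adjusted p of 0.05 under any alternative run that left it to test. Over all probe sets the count past the threshold was 0 in each alternative except quantile normalization, with 13 of 10080 probe sets left to test, and leaving out DMHF replicate 2, with 1, so that single arrays left out gave 0 to 1; the cause was not tested. The replicate number as a block also gave 0. The smallest limma adjusted p was then 0.172 (0.698 without the block), and 2217 probe sets had an unadjusted p under 0.05 (1700 without). Same-numbered control and DMHF rats had correlations of deviations from 0.0288 to 0.273. Differently numbered rats were not compared, so these values cannot decide whether the numbers pair the rats. The main fit does not use the numbers. Of 227 member differences recomputed, 223 moved by less than 1 within-group SD. That count includes the replicate block, a trended and robust limma variance and the brighter probe sets alone. These settings cannot change a difference, so their part of the count shows nothing. The other 4 moved under quantile normalization, which left 5 of 14 members to test. The difference of Cntnap2 1393783_at was then 0 (from -12.9 millionths) and that of Nlgn1 1381583_at -0.539 (from -2.84). Those of Nlgn2 1397705_at and Nlgn3 1375494_a_at were -96.1 and -125 millionths. In SD of the normalized values, these Nlgn1, Nlgn2 and Nlgn3 probe sets stood at -0.632, -0.631 and -0.632. That is about the value that 1 array apart from all others gives. The sizes in millionths after this step therefore do not show a group difference that shrank or grew. Centring on the median deviation was added after the data were seen. Of the same-gene correlations, 0 of 8 passed with the deposited values and 1 with a common array median. That scaling adds the same array shift, over a range of 15.2 millionths, to both probe sets of a pair, and all 8 r were then positive (0.106 to 0.92), so the pass says nothing about the pair. With quantile normalization, pairs with a probe set made constant could not be fitted. Of the related-gene lists, 0 probe sets passed under any alternative run that left them to test.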
